A study of Mus musculus with 9 samples.

Results

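The histone H3K9 demethylases are the enzymes that take methyl groups off lysine 9 of histone H3, and their transcripts were followed in mouse round spermatids (RS) cultured under 3 conditions. The set held the 10 genes of the KDM3, KDM4 and KDM7 groups, found by gene symbol among the 55414 genes of the count table. All 10 passed the filter of at least 10 counts summed over the 9 libraries, which left 25128 genes for testing. The KDM3 group was Kdm3a, Kdm3b and Jmjd1c, the KDM4 group was Kdm4a, Kdm4b, Kdm4c and Kdm4d, and the KDM7 group was Phf8, Phf2 and Kdm7a. They lie on 8 chromosomes: 6 (Kdm3a, ENSMUSG00000053470, and Kdm7a, ENSMUSG00000042599), 18 (Kdm3b, ENSMUSG00000038773), 10 (Jmjd1c, ENSMUSG00000037876), 4 (Kdm4a, ENSMUSG00000033326, and Kdm4c, ENSMUSG00000028397), 17 (Kdm4b, ENSMUSG00000024201), 9 (Kdm4d, ENSMUSG00000053914), X (Phf8, ENSMUSG00000041229) and 13 (Phf2, ENSMUSG00000038025).

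These enzymes carry a JmjC domain, which uses iron, oxygen and 2-oxoglutarate (alpha-ketoglutarate) to oxidise a methyl group so that it leaves the lysine. The metabolite 2-hydroxyglutarate (2HG) resembles 2-oxoglutarate and can compete with it at the active site. H3K9 methylation marks silent chromatin, with the trimethylated form concentrated at the heterochromatin around centromeres. KDM3 enzymes act on the mono- and dimethylated forms, KDM4 enzymes on the di- and trimethylated forms, and KDM7 enzymes read lysine 4 methylation through a PHD finger and remove lower methylation states. KDM3A is known in spermatids for its action at the genes of the packaging proteins Tnp1 and Prm1.

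RS were incubated for 24 h with vehicle, with 24 mM oxamate, or with 24 mM oxamate and 0.3 mM octyl-L2HG, and 3 libraries were made from each condition. Every group received 0.15% DMSO. Oxamate inhibits lactate dehydrogenase, which in the male germline can also make L-2HG, and octyl-L2HG is a cell-permeable ester of it. There was no group with octyl-L2HG alone. The labels give the genotype as WT, while the methods describe RS sorted from the testes of C57Bl/6 males in which Stra8-iCre, active in germ cells, switches on tdTomato. Cells were separated by tdTomato against forward scatter, and the study describes this isolation for adult testes, with adult mice over 10 weeks old and prepubertal mice also used. The RS of each condition were incubated in triplicate. Whether the triplicates came from separate animals is not given in the sources used here. The p-values therefore measure the spread between these incubations, which may be technical.

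The libraries held 32339533 to 39888396 counted reads. All 9 round spermatid marker genes were tested, and their summed normalized count (counts divided by the size factor of the library) was 113520 to 113910 in oxamate, below the range of 115238 to 118107 in the other libraries. Pgk2, the largest, averaged 29300 in vehicle and 26892 in oxamate. Of the 9, 4 had a log2 fold change above 0 under oxamate and 5 below. With both compounds against vehicle, 2 were raised and 3 lowered at an edgeR adjusted p under 0.05. Of all genes tested, 7.48% and 10.6% were. Of 6 Sertoli cell markers 3 passed the filter on low counts and summed to between 2.31 and 6.67, and each of the 6 was at under 50 counts over all libraries. Of 5 Leydig cell markers 3 passed and summed to between 19.7 and 40.3. The 4 macrophage markers summed to between 112 and 162. The 7 spermatocyte markers summed to between 9106 and 11296 in vehicle, between 8733 and 9703 in oxamate and between 10450 and 10829 with both compounds. Of these, 1 was raised and 0 lowered with both compounds against oxamate at an edgeR adjusted p under 0.05. Of all genes tested, 3.18% and 8.06% were. The 6 spermatogonia markers summed to between 240 and 258 in vehicle, below the range of 264 to 286 elsewhere. Gfra1 averaged 126 in vehicle, 161 in oxamate and 154 with both compounds, while Uchl1 averaged 49.8, 40.0 and 36.2. Under oxamate 3 of the 6 had a log2 fold change above 0 and 3 below. The part of these marker levels in the results was not tested. Oxamate library 4 lay apart from oxamate libraries 5 and 6 on the first 2 principal components, and vehicle library 1 from the other vehicle libraries, so the members' results that rest on these libraries are given with and without them, as are the calls of the other named genes that changed. Bulk RNA cannot tell fewer cells of a type from less RNA per cell.

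The 10 transcripts spanned a wide range of levels, and 2 of them made up most of the sum. In vehicle, Kdm4d had the highest level per length, at 2934 ± 78.9 normalized counts per kb of transcript (SD, n = 3), above 95.2% of the genes tested. Kdm3a followed with 1305 ± 46.7 per kb, above 90.6% of the genes. The 3 Kdm3a libraries lay below all 3 Kdm4d libraries and above all libraries of the next gene. Kdm4a, Phf8 and Jmjd1c came next at 113 ± 10.3, 112 ± 9.15 and 112 ± 11.9 per kb, and these neighbours overlapped. Below them, again without overlap from Jmjd1c to the next gene, Kdm7a, Kdm4b, Phf2 and Kdm3b stood at 47.8 ± 8.16, 47.3 ± 3.67, 45.9 ± 1.34 and 41.4 ± 5.25 per kb, each overlapping its neighbour. Kdm4c was the lowest at 11.5 ± 2.13 per kb, from 46 to 64 raw counts per vehicle library, and did not overlap Kdm3b.

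**Figure D1:**
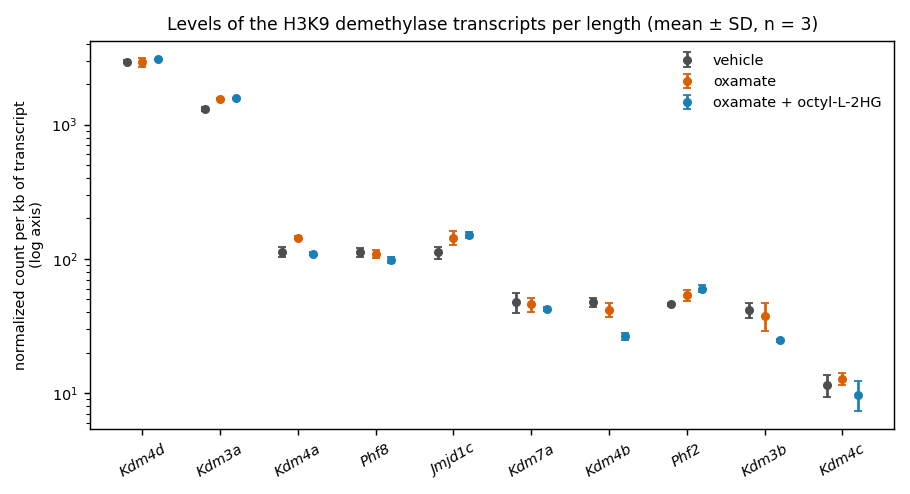
Normalized count per kb of transcript of each H3K9 demethylase gene (log axis), ordered by the vehicle level, in vehicle, oxamate and oxamate with octyl-L2HG; points are means and bars the SD of 3 libraries. Kdm4d and Kdm3a stand above the other 8 genes in each of the 3 groups, and Kdm4c stands below them.

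Kdm4d and Kdm3a together held 88.9% ± 0.998 (SD, n = 3) of the summed level per kb of the 10 genes in vehicle, 88.4% ± 1.13 in oxamate and 89.9% ± 0.0956 with both compounds. Within the KDM4 group Kdm4d held 94.5% of the vehicle level, and within the KDM3 group Kdm3a held 89.5%. Per kb of coding sequence Kdm4d and Kdm3a still led and Kdm3b and Kdm4c still came last, while Phf8 moved above Kdm4a, Kdm7a above Jmjd1c and Phf2 above Kdm4b. Kdm4d also differs in structure, since the longest annotated transcript has 2 exons against 20 to 26 for the other members. Its coding length of 1530 bases compares with 2820 to 7593 bases.

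Promoter sequence, the 250 bases before an annotated start, was given for 8 of the 10 genes in RefSeq on build GRCm38.p6. The windows of the 3 genes that rose under oxamate, described next, and of Kdm4d, the member with the highest level, are printed 5′ to 3′ on the strand of the gene. Capitals mark the CCAAT box, on either strand. They also mark, on either strand, TGACG, the core of a cAMP response element. The CREB and CREM family binds this element, and CREM is active in spermatids.

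Kdm3a, chr6:71632918-71633167, minus strand: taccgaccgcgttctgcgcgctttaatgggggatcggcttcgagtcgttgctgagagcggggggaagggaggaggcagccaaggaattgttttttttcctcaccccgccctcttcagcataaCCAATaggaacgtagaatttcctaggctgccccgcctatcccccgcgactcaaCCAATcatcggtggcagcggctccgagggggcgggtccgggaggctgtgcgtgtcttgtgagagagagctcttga

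Jmjd1c, chr10:67126838-67127087, plus strand: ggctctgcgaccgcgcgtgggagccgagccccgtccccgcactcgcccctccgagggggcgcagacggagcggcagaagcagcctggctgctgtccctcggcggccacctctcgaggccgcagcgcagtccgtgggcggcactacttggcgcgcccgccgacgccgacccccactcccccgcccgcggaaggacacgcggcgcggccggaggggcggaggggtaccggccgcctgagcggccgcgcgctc

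Kdm4a, chr4:118180044-118180293, minus strand: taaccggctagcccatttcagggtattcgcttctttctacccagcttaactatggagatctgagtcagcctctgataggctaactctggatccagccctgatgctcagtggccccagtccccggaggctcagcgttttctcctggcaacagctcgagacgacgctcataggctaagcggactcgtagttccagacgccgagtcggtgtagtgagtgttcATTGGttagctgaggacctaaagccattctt

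Kdm4d, chr9:14500483-14500732, minus strand: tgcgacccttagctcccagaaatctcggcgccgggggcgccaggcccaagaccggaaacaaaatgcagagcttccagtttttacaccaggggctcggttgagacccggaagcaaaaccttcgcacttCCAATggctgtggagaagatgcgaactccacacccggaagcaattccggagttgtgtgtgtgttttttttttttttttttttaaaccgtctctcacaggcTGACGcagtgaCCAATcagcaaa

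The Kdm3a and Kdm4d windows each held 2 CCAAT boxes and the Kdm4a window 1, while the Jmjd1c window held none. Of these 4 windows, TGACG stood only in that of Kdm4d. GGGCGG, the GC box, was found on either strand 3 times in the Jmjd1c window, 2 times in that of Kdm3a and not in those of Kdm4a or Kdm4d. In the first window of each of the 8 genes, 4 genes held CCAAT, 3 held TGACG and 5 held GGGCGG. Of all 32851 promoter windows of this length, 33.8% held CCAAT, 17.8% held TGACG and 32.7% held GGGCGG. The full element TGACGTCA, which contains TGACG, was in 1.5% of all windows and in 1 member, Phf8. None of these letter strings stood in the printed windows of all 3 genes that rose. RefSeq gives more than 1 start for Kdm3a and Jmjd1c, and the first window listed is shown. The second Jmjd1c window held TGACG 1 time. Over all 12 windows listed for the 8 genes, 5 genes held it. Which start is used in RS was not tested.

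The 3 groups were compared in edgeR's quasi-likelihood test at a Benjamini-Hochberg adjusted p under 0.05. In it 6 of the 10 genes differed, against 19.8% of all genes tested, low-count genes included. They were Kdm4b (edgeR adjusted p = 5.55e-05), Kdm3b (0.00113), Kdm4a (0.00143), Jmjd1c (0.00378), Kdm3a (0.00445) and Phf2 (0.0262). Kdm4d, Kdm4c, Phf8 and Kdm7a did not pass, with edgeR adjusted p-values of 0.854, 0.34, 0.145 and 0.401. The same 6 genes were the members called in at least 1 of the 3 pairwise comparisons. These comparisons share libraries, since oxamate enters the first and the second, and vehicle the first and the third, so their values are not independent of each other.

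**Figure D2:**
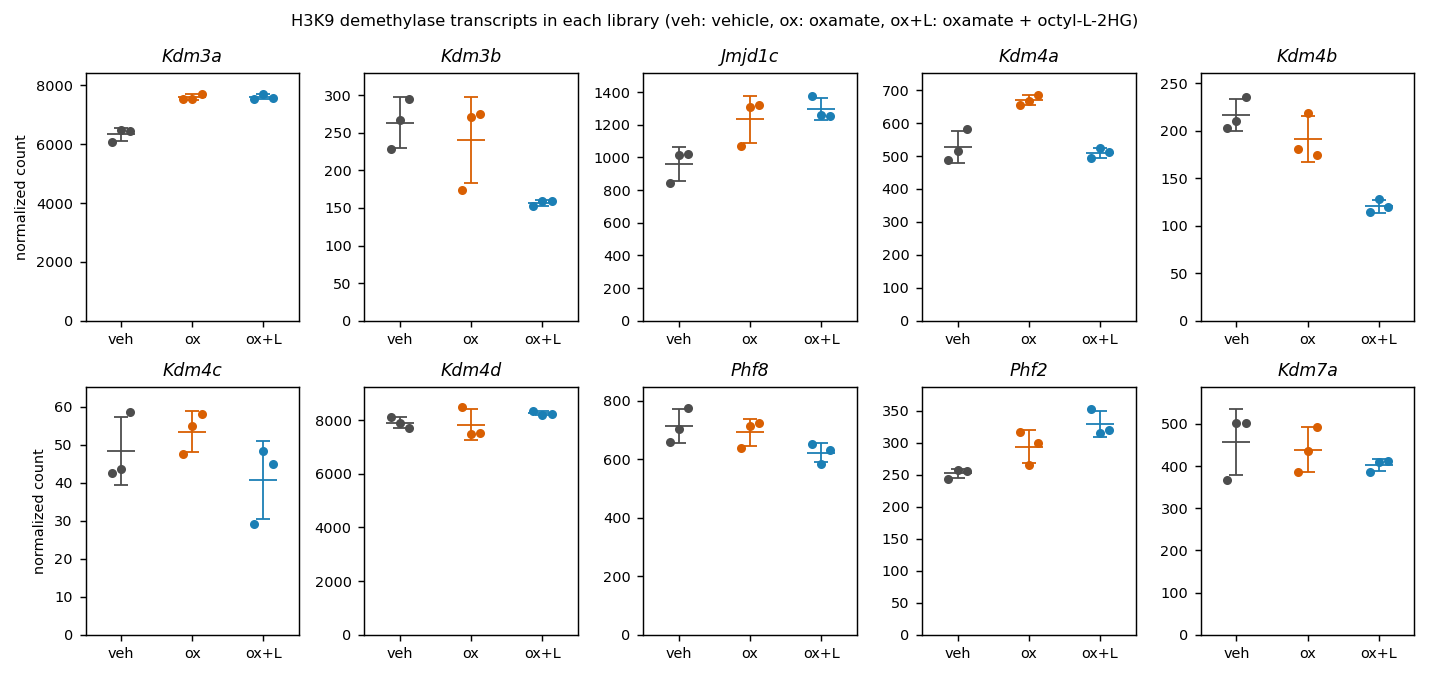
Normalized count (vertical axes from 0, 1 scale per gene) of the 10 H3K9 demethylase genes in each of the 9 libraries (points), with the group mean and SD (bars, n = 3). The 3 libraries with both compounds lie below all others for Kdm3b and Kdm4b, and the 3 oxamate libraries lie above all others for Kdm4a.

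Oxamate against vehicle asks what changed when lactate dehydrogenase was inhibited. Kdm3a, Jmjd1c and Kdm4a rose by 20.2%, 28.6% and 27.2%. None of the 10 genes was called lowered, though 5 had a log2 fold change below 0. In all genes tested, 3.97% were called raised and 1.22% lowered, 997 and 306 genes, and with offsets for transcript length and GC content the counts were 1070 and 578. Among the better expressed genes, at 100 normalized counts or more on average, which 9 of the 10 members reach, the shares were 8.08% and 1.59%. At an unadjusted p under 0.05, 4 members were raised and 0 lowered, where 4348 of the 25128 genes tested passed in either direction. The DESeq2 test called 3 members raised and 0 lowered, and 984 and 270 of all genes. The median log2 fold change of the members was 0.07, beside -0.01 for all genes tested and 0.01 for the better expressed genes. All 3 oxamate libraries lay above all 3 vehicle libraries in 4 members, where 11.4% of all genes did so, and below them in 0, against 9.95%. Of the 10715 better expressed genes, 1772 lay wholly above vehicle and 1150 wholly below.

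Kdm3a, which removes mono- and dimethyl marks, was at 6071, 6483 and 6440 normalized counts in the vehicle libraries and at 7532, 7535 and 7703 in the oxamate libraries. The groups did not overlap, and the oxamate libraries were close to each other. The log2 fold change was 0.27 (SE 0.06, 95% interval 0.14 to 0.39, edgeR adjusted p = 0.0101).

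Jmjd1c encodes a large KDM3 group protein, whose demethylase activity has been disputed and whose loss in mice leads to a decline of male germ cells. It was at 842.3, 1017 and 1022 normalized counts in vehicle and at 1067, 1306 and 1323 in oxamate. Vehicle library 1 and oxamate library 4 were the low values of their groups, and the groups still did not overlap. The log2 fold change was 0.36 (SE 0.09, 95% interval 0.18 to 0.55, edgeR adjusted p = 0.0187).

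Kdm4a, an eraser of trimethyl marks on lysines 9 and 36, was at 487.8, 513.7 and 580.6 in vehicle and at 655.4, 666 and 685.2 in oxamate. Every oxamate library stood above every vehicle library, with a log2 fold change of 0.35 (SE 0.08, 95% interval 0.18 to 0.52, edgeR adjusted p = 0.013).

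Each of the 3 rises rested in part on vehicle library 1. Without it the log2 fold changes were 0.24, 0.28 and 0.29 for Kdm3a, Jmjd1c and Kdm4a, with edgeR adjusted p-values of 0.053, 0.0994 and 0.0704. Without oxamate library 4 they were 0.27, 0.45 and 0.36, and all 3 stayed past the threshold, at edgeR adjusted p-values of 0.00149, 4.93e-05 and 0.00288. Jmjd1c also lost its call without oxamate library 5 (0.32, edgeR adjusted p = 0.0985) or 6 (0.31, 0.0765), and Kdm4a without vehicle library 2 (0.33, 0.0698). With only the vehicle and oxamate libraries in the fit, the log2 fold changes were 0.26, 0.36 and 0.35, and none of the 3 passed, at edgeR adjusted p-values of 0.0548, 0.0734 and 0.055.

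Log2 fold changes under oxamate were related to transcript length across genes, with Spearman's rho of 0.34 over 10696 genes, which share the libraries and are not independent replicates. The members are long, with a median of 5173.5 bases beside 2485 for all genes tested. With offsets for length and GC content in the fit the 3 rises remained called, at 0.22, 0.29 and 0.26 (edgeR adjusted p = 0.0036, 0.00463 and 0.044).

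Phf2, which acts on dimethylated lysine 9 in a complex with ARID5B, was at 243.4, 256.8 and 255.5 in vehicle and at 317.2, 265.6 and 299.3 in oxamate. These groups did not overlap, but the log2 fold change of 0.23 (SE 0.10, 95% interval 0.03 to 0.43) did not pass (edgeR adjusted p = 0.216). With offsets for length and GC content it was 0.09 (edgeR adjusted p = 0.639). Kdm4d, the most abundant member, was at 8131, 7881 and 7707 in vehicle and at 8483, 7485 and 7530 in oxamate, so oxamate held both the highest and the lowest values. Its log2 difference was -0.01, with a 95% interval of -0.15 to 0.13. For Kdm3b, Kdm4b, Kdm4c, Phf8 and Kdm7a the log2 values lay between -0.17 and 0.15, with edgeR adjusted p-values from 0.479 to 0.88. The widest interval was that of Kdm4c, from -0.25 to 0.55. With 1 library left out, Kdm4b ranged from -0.28 to -0.10 and Kdm4c from 0.065 to 0.30, and neither was called. With the offsets the members not called lay between -0.28 for Kdm4b and 0.12 for Kdm4c, and none passed (edgeR adjusted p = 0.153 to 0.791).

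**Figure D3:**
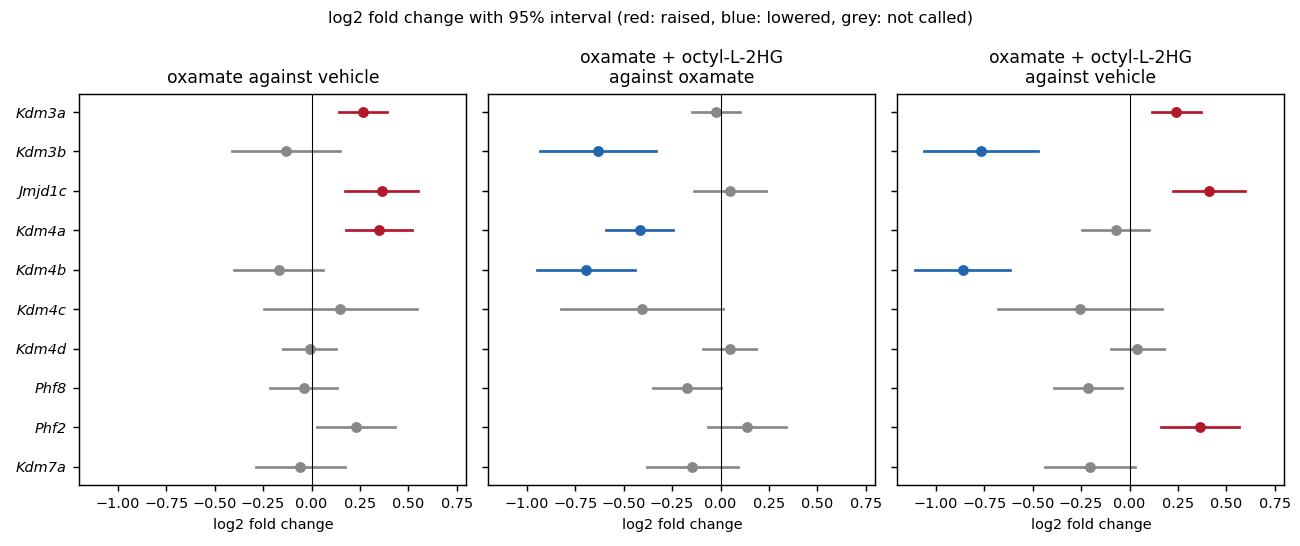
Log2 fold change of each H3K9 demethylase gene (points) with its 95% interval (lines) in the 3 comparisons, each in its own panel; red marks genes raised and blue genes lowered at an edgeR adjusted p under 0.05, grey the rest. Oxamate raised 3 genes, adding octyl-L2HG to oxamate lowered 3, and both compounds against vehicle raised 3 and lowered 2.

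Adding octyl-L2HG to oxamate asks which levels differed when L-2HG was supplied along with the inhibitor. Both compounds were given together for 24 h, so each step, rise or fall is a difference between parallel cultures. Kdm3b, Kdm4a and Kdm4b fell by 35.6%, 25.1% and 38.2%. None of the 10 genes was called raised, though 3 had a log2 fold change above 0. In all genes tested 8.06% were called lowered and 3.18% raised, and among those with a mean of at least 100 the shares were 12.7% and 7.06%. The count of members raised was 0 also at an unadjusted p under 0.05 and by DESeq2, which raised 1234 of all genes. The median of the members was -0.16, beside -0.04 for all genes and 0.01 for genes with a mean of at least 100. In 3 members every library with octyl-L2HG was lower than every oxamate library, as in 15.3% of all genes, and in 0 members it was higher, as in 13.4%. Of the 10715 genes with a mean of at least 100, 1962 were wholly lower and 2618 wholly higher.

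Kdm4a was the 1 member that was raised by oxamate and lowered when octyl-L2HG was added. The libraries with both compounds held 493, 524.5 and 511.1 normalized counts, below the lowest oxamate library at 655.4 and within the vehicle range. The log2 fold change against oxamate was -0.42 (SE 0.08, 95% interval -0.59 to -0.25, edgeR adjusted p = 0.00211). Against vehicle it was -0.07 (95% interval -0.24 to 0.10, edgeR adjusted p = 0.634), and -0.16 with offsets for length and GC content (edgeR adjusted p = 0.187). Both the rise and the fall use the same 3 oxamate libraries.

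Kdm4b, which acts on trimethylated lysine 9 and is induced by hypoxia in many cells, was at 181, 219.4 and 174.3 in oxamate and at 114.5, 128 and 119.8 with both compounds, with a log2 fold change of -0.69 (SE 0.12, 95% interval -0.95 to -0.44, edgeR adjusted p = 0.000699). Vehicle was at 203.5, 210.4 and 235.4, so the libraries with both compounds were also below every vehicle library.

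Kdm3b, a relative of Kdm3a needed for normal male fertility in mice, was at 174.3, 271.4 and 275.2 in oxamate, where library 4 was far below the other two. With both compounds it was at 152.7, 159.1 and 159.1, below each oxamate library. The log2 fold change was -0.63 (SE 0.14, 95% interval -0.93 to -0.33, edgeR adjusted p = 0.0063), and without oxamate library 4 it was -0.82 (edgeR adjusted p = 8.64e-07). An exon of Kdm3b overlaps the noncoding gene Gm26538 on the opposite strand, and the strand setting of the counting is not given in the sources used here.

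The falls of Kdm3b, Kdm4a and Kdm4b passed with any 1 of the 9 libraries left out and in all 8 other settings of the fit. Kdm3a and Jmjd1c, raised by oxamate, were not called lower with both compounds than with oxamate. Kdm3a was at 7529, 7695 and 7580 with both compounds, a log2 difference from oxamate of -0.02 with a 95% interval of -0.15 to 0.10. Jmjd1c was at 1376, 1261 and 1252, a difference of 0.05 with an interval of -0.14 to 0.23. The remaining 5 members had log2 values between -0.41 for Kdm4c and 0.14 for Phf2, and edgeR adjusted p-values from 0.213 to 0.735.

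**Figure D4:**
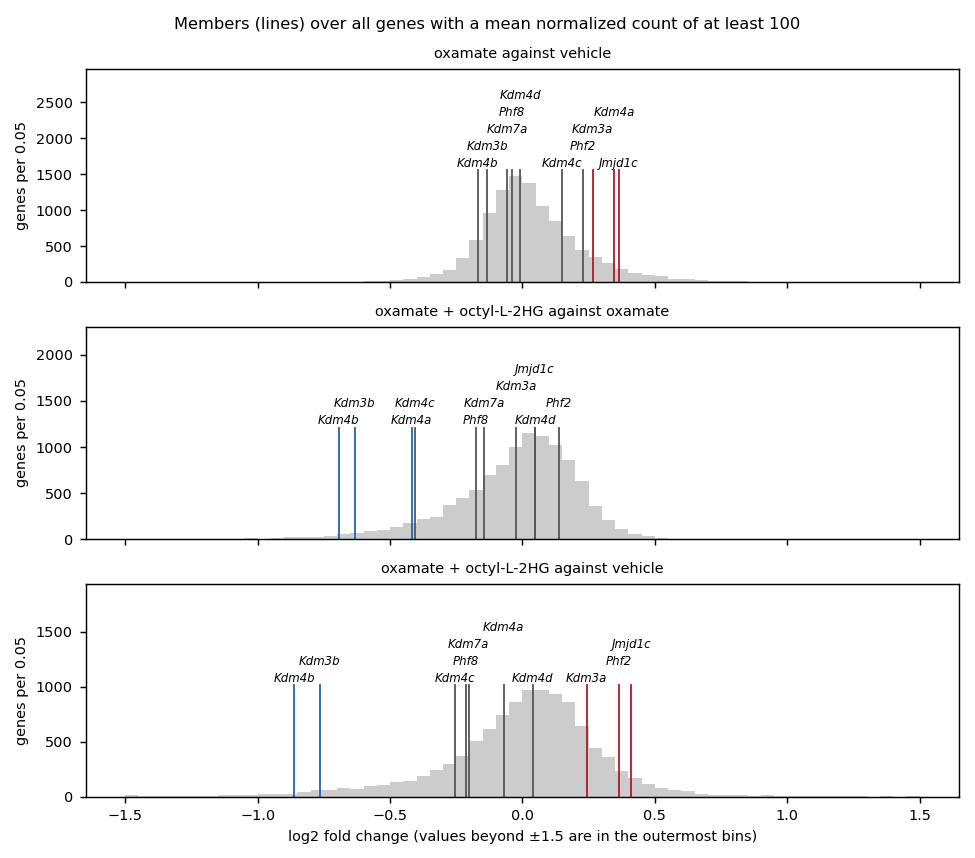
Histograms of the log2 fold change of the 10715 genes that average 100 normalized counts or more (horizontal axis, bins of 0.05; vertical axis, genes per bin) in the 3 comparisons, with a line at the value of each H3K9 demethylase gene (red raised, blue lowered, grey not called). Kdm4b, at -0.69 and -0.86, and Kdm3b, at -0.63 and -0.77, lie far out in the lower tail once octyl-L2HG was present; Kdm4c, below that mean count, is drawn for completeness.

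Oxamate with octyl-L2HG against vehicle gives the sum of both steps. Kdm3a, Jmjd1c and Phf2 were raised, by 18.3%, 32.9% and 28.7%. Kdm3b fell by 41.2% and Kdm4b fell by 45.0%. In all genes tested 7.48% were called raised and 10.6% lowered, and among genes with a mean of at least 100 the shares were 16% and 13.6%. The median over the members was -0.14, beside -0.05 for all genes and 0.03 for genes with a mean of at least 100. All libraries with both compounds lay above vehicle in 4 members, as in 18% of all genes, and below it in 3, as in 18.5%. Of the 10715 genes with a mean of at least 100, 3601 lay wholly above vehicle and 2081 wholly below.

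Kdm4b had a log2 fold change of -0.86 (SE 0.12, 95% interval -1.11 to -0.62, edgeR adjusted p = 2.29e-05). Kdm3b, at 228.3, 267.3 and 294.9 in vehicle, had one of -0.77 (SE 0.14, 95% interval -1.06 to -0.47, edgeR adjusted p = 0.000528). Both falls, and the rises of Kdm3a (0.24, SE 0.06, edgeR adjusted p = 0.00681) and Jmjd1c (0.41, SE 0.09, edgeR adjusted p = 0.00245), passed with each library left out and in all 8 other settings.

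Phf2 reached 352.6, 314.7 and 320.2 with both compounds, above all vehicle libraries, and its log2 fold change was 0.36 (SE 0.10, 95% interval 0.16 to 0.56, edgeR adjusted p = 0.0106). It was lost without library 7 of both compounds (0.32, edgeR adjusted p = 0.0675) and with offsets for length and GC content (0.24, 0.0618). Its exons overlap those of Phf2os1 on the opposite strand. The oxamate mean of 294 lay between 252 in vehicle and 329 with both compounds, and neither step to or from it passed, with values of 0.23 (0.09 with the offsets) and 0.14. With 1 library left out these values ranged from 0.16 to 0.30 and from 0.067 to 0.20, and none passed.

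Phf8, an X-linked eraser of lower methylation states, was at 659.3, 705.1 and 774.8 in vehicle and at 651.4, 585.6 and 632.8 with both compounds. The groups did not overlap, and the log2 value of -0.21 (SE 0.08, 95% interval -0.39 to -0.04) did not pass (edgeR adjusted p = 0.0836). It did pass without vehicle library 1 (-0.27, edgeR adjusted p = 0.0481), without oxamate library 4 (-0.21, 0.0254), with total counts as the scaling (-0.28, 0.0253), among genes of at least 100 normalized counts on average (-0.24, 0.0441) and with offsets for length and GC content (-0.29, 0.00433). Kdm7a, at 366.9, 502.3 and 501.9 in vehicle and 386.3, 409.2 and 411.9 with both compounds, had -0.20 (edgeR adjusted p = 0.237). Without vehicle library 1, its lowest vehicle value, the log2 value was -0.34 (edgeR adjusted p = 0.0239), and with the offsets it was -0.27 (0.0208). Exons of Kdm7a overlap those of the antisense gene 4930599N23Rik.

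Kdm4d lay above every vehicle library with both compounds, at 8329, 8181 and 8232, by a log2 difference of 0.04 (95% interval -0.10 to 0.18, edgeR adjusted p = 0.755). Kdm4c was at 29.2, 48.42 and 44.93 with both compounds, the lowest from 26 raw counts, and its value of -0.26 did not pass (edgeR adjusted p = 0.442). This value became -0.07 without library 7 of both compounds and -0.10 without vehicle library 3, and the -0.41 against oxamate became -0.22 without library 7. The 95% interval against oxamate, from -0.83 to 0.02, was wider than that of any other member in that comparison.

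By group, the calls were as follows, and differences between members were not tested. In the KDM3 group Kdm3a and Jmjd1c were raised in both comparisons with vehicle, while Kdm3b was lowered in both comparisons of the libraries with octyl-L2HG. In the KDM4 group Kdm4a was raised by oxamate and lowered with both compounds against oxamate, and Kdm4b was lower where octyl-L2HG was present. Kdm4c and Kdm4d were called in none, although the uncalled -0.41 of Kdm4c against oxamate is close to the called -0.42 of Kdm4a. In the KDM7 group Phf2 was raised in 1 comparison and Phf8 and Kdm7a were called in none, while with the offsets Phf2 lost its call and the other two gained one. The summed level per kb of the 10 genes, which Kdm4d and Kdm3a dominate, was 4769 ± 25.6 in vehicle, 5058 ± 162 in oxamate and 5147 ± 20.3 with both compounds (SD, n = 3).

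**Figure D5:**
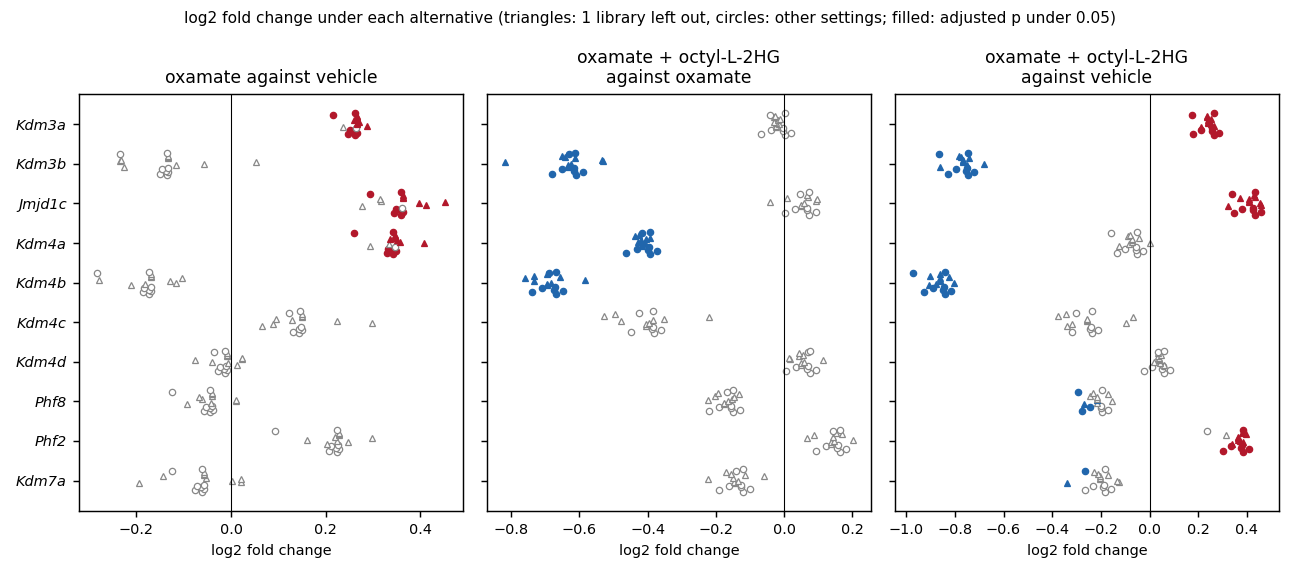
Log2 fold change of each H3K9 demethylase gene under every alternative, in 3 panels for the 3 comparisons; triangles are fits with 1 library left out, circles other settings, and filled symbols have an adjusted p under 0.05. The falls of Kdm3b, Kdm4a and Kdm4b against oxamate are filled throughout, while some symbols of Kdm3a, Jmjd1c and Kdm4a in oxamate against vehicle are open.

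Other genes of the same chemistry were counted from lists. Of 21 other JmjC genes, 5 were raised and 0 lowered by oxamate (6 and 0 at an unadjusted p under 0.05, 5 and 0 by DESeq2), 2 raised and 2 lowered when octyl-L2HG was added, and 5 raised and 1 lowered by both against vehicle. At an unadjusted p under 0.05 the last 2 pairs of counts were 2 and 5, and 8 and 2, and by DESeq2 they were 2 and 2, and 6 and 1. In the 3 comparisons 4348, 5934 and 7527 of the 25128 genes tested passed the unadjusted threshold, in either direction. The shares of all genes called raised and lowered by edgeR were 3.97% and 1.22% under oxamate, 3.18% and 8.06% when octyl-L2HG was added, and 7.48% and 10.6% with both against vehicle. Among genes with a mean of at least 100 they were 8.08% and 1.59%, 7.06% and 12.7%, and 16% and 13.6%. Kdm2a, a demethylase of lysine 36, rose at each step, by 0.28 and 0.32 on the log2 scale, and the first rise was lost without vehicle library 1 (0.24, edgeR adjusted p = 0.137). Kdm5c and Kdm5b, which act on lysine 4, rose under oxamate by 0.49 and 0.33, and their values of -0.20 and -0.18 when octyl-L2HG was added did not pass. Without oxamate library 4, Kdm5b did pass at that step (-0.17, edgeR adjusted p = 0.0358) and against vehicle with both compounds (0.15, 0.0305), and without vehicle library 1 Kdm5c lost its call with both compounds against vehicle (0.25, 0.0646). Jarid2, a partner of Polycomb repressive complexes without demethylase activity, was at 0.10 under oxamate and fell by 0.66 when octyl-L2HG was added. Its oxamate value was 0.18 without oxamate library 4 and 0.0022 without vehicle library 1, and passed in neither. Kdm6b, an eraser of lysine 27 methylation named after its values were seen, rose by 0.60 under oxamate and fell by 0.45 when octyl-L2HG was added, the same order of calls as in Kdm4a.

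The flavin-dependent demethylases use another cofactor and not 2-oxoglutarate. Of the 2, Kdm1a was raised when octyl-L2HG was added, by 0.25, and against vehicle, by 0.34, and Kdm1b was called in no comparison. Under oxamate 0 of the 2 were called by edgeR, at an unadjusted p under 0.05 or by DESeq2. Of the 7 writers of H3K9 methylation 0 were called under oxamate by edgeR and 0 by DESeq2, with 2 raised and 0 lowered at an unadjusted p under 0.05. Of all genes tested, edgeR called 3.97% raised and 1.22% lowered under oxamate, and 4348 of 25128 passed at the unadjusted threshold. Setdb2, Setdb1 and Prdm2 rose by 0.34, 0.29 and 0.24 when octyl-L2HG was added by edgeR. No writer was lowered by edgeR at the adjusted or the unadjusted threshold, or by DESeq2. Of all genes tested, 3.18% were called raised and 8.06% lowered at that step. With both compounds against vehicle, 3 writers were raised and 0 lowered, and 4 readers were raised and 1 lowered. Of all genes, 7.48% and 10.6% were so called. Of the 6 readers, Uhrf1 rose under oxamate by 0.47, and Cbx3, the HP1 gamma gene, rose by 0.36 when octyl-L2HG was added, where Cdyl fell by 0.32. Cbx1, the HP1 beta gene, had 0.30 at that step, which did not pass, and 0.35 against vehicle, which did. Without vehicle library 1, the calls of Setdb2, Cbx3 and Cbx1 with both compounds against vehicle were lost, at 0.21, 0.22 and 0.27 (edgeR adjusted p = 0.133, 0.0773 and 0.154). No call of a named gene in these lists was lost without oxamate library 4.

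The packaging genes include those that KDM3A is known to act on, and a link between their levels and Kdm3a was not tested. Prm1 was at 4915 ± 313 normalized counts in vehicle, 3591 ± 49.7 in oxamate and 2919 ± 54.2 with both compounds (SD, n = 3), and fell at each step, by 0.45 and 0.32 on the log2 scale. Tnp1 was at 6912 ± 426, 5738 ± 270 and 4769 ± 136, and fell by 0.26 and 0.29, the first of which was lost without vehicle library 1 (-0.22, edgeR adjusted p = 0.0954). Of the 5 packaging genes 4 were lowered by oxamate, Tnp2 and Prm2 among them at -0.32 and -0.38, and all 5 when octyl-L2HG was added and against vehicle, where 1.22%, 8.06% and 10.6% of all genes were called lowered. Prm1 and Tnp1 transcripts are short, at 469 and 437 bases. With offsets for length and GC content the oxamate value of Prm1 was -0.35 (edgeR adjusted p = 7.84e-05), and that of Tnp1 was -0.13 and did not pass (0.124). When octyl-L2HG was added the values were then -0.20 and -0.15 (edgeR adjusted p = 0.00925 and 0.0347), and Prm3 lost its call (-0.18, 0.0753). Against vehicle the values of Prm1 and Tnp1 with both compounds were -0.55 and -0.29 (edgeR adjusted p = 3.58e-08 and 0.00015).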

How the data were processed

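RNA of cultured RS was sequenced as stranded poly(A) libraries, 3 per group. The authors trimmed the reads with fastx_toolkit and cutadapt 2.10, aligned them with TopHat 2.1.1 to mouse build GRCm39 with Ensembl annotation, and counted reads per gene with htseq-count 2.01 (versions in the submitters' processing notes). The authors deposited these counts without normalization, and a normalized signal, which is the count divided by 1 DESeq2 size factor per library (0.867 to 1.125). The labels and the methods name different sequencers, and the strand setting of the counting is not given in the sources used here.

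Groups came from the sample labels. The 25128 genes with at least 10 counts over the 9 libraries were fitted in edgeR 4.0.16 (R 4.3.3) with TMM normalization, group as the only term and robust quasi-likelihood estimation. Genes were called at a Benjamini-Hochberg adjusted p under 0.05 over all genes tested, and intervals are 95%. The script was tested on simulated data. Alternatives were DESeq2 1.42.0, other scalings, filters and thresholds, fits of the compared groups only, each library left out in turn, and offsets for transcript length and GC content. Length, GC content, chromosomes, exons and overlaps came from GENCODE on build GRCm38, with 99.6% of tested genes found there under the same identifier. It is not the build of the counts. Promoters came from RefSeq. Levels per kb are normalized counts over the longest transcript.

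The members and the gene lists were chosen with earlier results of these data known. All members are named, and of each other list at most 4 genes, those called in a comparison with the smallest adjusted p of the test of any difference. Exceptions, chosen once values had been seen, are Kdm6b, Kdm1b, Prm3 and the cell type markers Pgk2, Gfra1 and Uchl1. Total counts were 36623116 to 39888396 in vehicle, 32434700 to 37799549 in oxamate and 32339533 to 39445771 with both compounds. Libraries of a group differed by more than sampling noise, chi-square values per degree of freedom being 2.1 to 23.3.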

Additional observations from a re-analysis of the deposited data

How the results depend on the processing

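Against oxamate, the falls of Kdm3b, Kdm4a and Kdm4b kept their direction and call in each alternative, and 0 members were raised. The count of members raised by oxamate was 3 and fell to 0 at an adjusted p under 0.01 and to 0 with only the compared groups in the fit. With 1 library left out it ranged from 0, without vehicle library 1, to 3. Against vehicle, the members lowered by both compounds were 2, became 3 with total counts or a mean of at least 100 (Phf8 added) and 4 with length and GC offsets (Phf8 and Kdm7a added), and ranged from 2 to 4 with 1 library left out. Those raised ranged from 2 to 3, and the members differing among the 3 groups from 5 to 7. The causes were not tested.

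All genes called by oxamate were 1303, and 602 at an adjusted p under 0.01, 4348 at an unadjusted p under 0.05, 723 with only the compared groups and 669 (without vehicle library 2) to 2305 (without oxamate library 4) with 1 library left out. Against oxamate they were 2823, then 1261 and 5934 at these thresholds, and 1385 (without library 7 of both compounds) to 4417 (without oxamate library 4), with 1447, 1489 and 1752 without oxamate library 5 and libraries 8 and 9 of both compounds. Both compounds against vehicle gave 4534, then 2607 and 7527, and 2961 (without library 7) to 6182. The split of raised to lowered was 798 to 2025 against oxamate and 421 to 2516 with total counts as the scaling, 1429 to 1797 without a filter, 1824 to 2240 with length and GC offsets and 1234 to 1637 by DESeq2. For oxamate against vehicle it was 997 to 306, and 1070 to 578 with the offsets. For both compounds against vehicle it was 1879 to 2655, 1231 to 3367 with total counts, 2690 to 2421 without a filter and 2480 to 2747 with the offsets. No scaling moved the median of the well expressed genes by over 0.1.

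Of the values that changed sign none was called. Against oxamate Kdm3a was at 0.0021 with DESeq2 size factors or the DESeq2 test and 0.021 without a filter, and Jmjd1c ranged from -0.042 without oxamate library 4 to 0.096. Against vehicle with both compounds, Kdm4d was at -0.024 with total counts. Kdm4a ranged there from -0.12 to 0.00060 with 1 library left out, the latter without vehicle library 3, and was at -0.16 with length and GC offsets. Under oxamate, values with 1 library left out ranged from -0.23 to 0.053 for Kdm3b, from -0.076 to 0.024 for Kdm4d, from -0.093 to 0.011 for Phf8 and from -0.19 to 0.021 for Kdm7a. Kdm4c was not tested among genes with a mean of at least 100.

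No paired analysis was run. The libraries are numbered 1 to 3, 4 to 6 and 7 to 9, and the labels do not say whether libraries of different groups belong together. Libraries 1, 4 and 7 were each the lowest of their group for Kdm3a, Kdm3b, Kdm4a, Kdm4c and Kdm7a, and the highest for Kdm4d. The remaining members did not share such an order. A pairing by order of number was not tested. Kdm4c, at 26 to 64 counts per library, had the widest intervals.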
